A study of Drosophila melanogaster with 2 samples.

Results

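Chromosome 4 of Drosophila melanogaster carried 24 analysed peaks of Kumgang tagged with GFP in the deposited list of thresholded peaks. Such a peak lay within 500 bp of a transcription start site (TSS) at 17 of its 79 analysed protein-coding genes. These genes are all protein-coding genes that Ensembl annotates on the chromosome, with 1 left out and not analysed here, and they are 79 of 13967 protein-coding genes of the chromosomes. The chromosome was selected on its peak signals and on the difference of the replicates there, so the values below are a description and carry no test. The data are chromatin immunoprecipitation with sequencing (ChIP-seq) of whole adult males of unknown age from 1 transgenic line, which stably expresses CG5204, the gene kmg (kumgang), with eGFP at its C terminus; the immunoprecipitation used an antibody against GFP. There is 1 group with 2 biological replicates and no second condition, the control libraries were not analysed here, and whole animals mix all tissues, so a peak cannot be assigned to a cell type.

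Kumgang has zinc fingers and is best known from the male germ line, where together with Mi-2, a nucleosome remodeller, it prevents the expression of genes that belong to other cell types. Chromosome 4 is the small dot chromosome of the fly. It is known for being rich in transposable elements and largely packaged as heterochromatin marked by HP1a, while its genes are nonetheless expressed, and for Pof, a protein that coats the chromosome and binds its genes.

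The deposited lists were of 3 kinds. They held 30000 regions for each replicate, 30000 for the pooled replicates and 2868 peaks deposited as thresholded by the irreproducible discovery rate (IDR). The IDR measures how well the replicates rank the same regions. At the 17 chromosome 4 genes with an IDR peak within 500 bp of a TSS, its signal and rank equalled those in the pooled list. The 2868 strongest pooled regions also held 24 on chromosome 4, as many as the IDR list. An IDR peak did not need a listed region in both replicates. A place in the IDR list therefore does not show that a single peak was found in both. All 17 genes had a replicate 1 region within 500 bp of a TSS, and 14 had a replicate 2 region. The lists of 30000 include background. Signal is a number that the authors' peak caller assigned to each region, on a scale that no source used here explains. The depth is unknown because read totals are likewise missing from these sources, and a region that is absent from a list may still have reads. All 24 IDR peaks of the chromosome had the common width of 430 bp, so positions are those of the summits, 1-based on build dm6.

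The sequences at 6 summits are shown. Of these, 4 hold the DNA replication-related element (DRE), the word TATCGATA. It is bound by the factor DREF at promoters of many broadly expressed genes. The others are the strongest promoter peak (gw) and the strongest peak with no TSS within 500 bp (nearest member lgs). Each runs from 100 bp before to 100 bp after the summit and stops where an annotated exon begins; the genome is RefSeq's Release 6. Capitals mark the DRE and the shorter word CGATA of the insulator protein BEAF-32, read on both strands. The DRE holds CGATA on either strand, so each DRE also counts as a BEAF-32 word. All but the lgs window are written on the strand of the gene.
Hcf, chr4:359749-359937, plus strand: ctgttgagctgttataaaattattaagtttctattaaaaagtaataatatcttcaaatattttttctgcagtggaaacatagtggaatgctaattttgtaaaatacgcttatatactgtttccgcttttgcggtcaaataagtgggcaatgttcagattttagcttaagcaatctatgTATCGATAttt
ey, chr4:696788-696988, plus strand: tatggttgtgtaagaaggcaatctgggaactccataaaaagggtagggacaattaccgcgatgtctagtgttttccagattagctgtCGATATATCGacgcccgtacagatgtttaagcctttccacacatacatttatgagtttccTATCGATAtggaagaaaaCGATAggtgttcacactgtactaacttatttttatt
PlexA, chr4:1027156-1027356, minus strand: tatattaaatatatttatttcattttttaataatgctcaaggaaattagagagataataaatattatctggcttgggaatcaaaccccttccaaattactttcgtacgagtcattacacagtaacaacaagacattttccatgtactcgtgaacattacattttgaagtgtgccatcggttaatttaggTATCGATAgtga
PIP4K, chr4:1196849-1196989, minus strand: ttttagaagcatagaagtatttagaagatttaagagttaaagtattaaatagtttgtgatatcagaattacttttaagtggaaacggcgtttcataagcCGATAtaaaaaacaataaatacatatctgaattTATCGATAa
gw, chr4:660034-660234, minus strand: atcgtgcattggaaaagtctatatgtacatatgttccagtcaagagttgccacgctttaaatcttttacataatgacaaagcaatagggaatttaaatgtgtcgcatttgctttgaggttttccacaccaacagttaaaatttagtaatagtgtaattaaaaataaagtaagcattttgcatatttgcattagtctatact
lgs, chr4:424664-424864, plus strand: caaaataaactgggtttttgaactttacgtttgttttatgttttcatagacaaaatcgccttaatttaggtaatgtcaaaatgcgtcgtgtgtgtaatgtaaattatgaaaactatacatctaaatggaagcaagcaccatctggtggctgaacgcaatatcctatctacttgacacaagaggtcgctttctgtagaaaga
Neither the gw nor the lgs window holds either word. The DRE lay 81 bp past the summit at Hcf, 50 bp at ey, 93 bp at PlexA and 36 bp at PIP4K. In each case it was on the side towards the gene named. The ey summit lies between ey and its divergent neighbour myo, so there the DRE was on the side away from myo.

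A larger share of chromosome 4 genes than of other genes had a promoter peak, and the peaks had lower signals. An IDR promoter peak was found at 17 of 79 members (21.5%), against 1730 of 13888 other protein-coding genes (12.5% both there and over all protein-coding genes). The members are not independent: CG46466 and Slip1 share a summit, and CG11076 and ATPsynbeta have the same strongest summit. The chromosome was selected on these peaks, so the difference carries no test. Of the 1434 strongest IDR peaks, promoter summits were at 2 members (2.53%), against 8.05% of other genes (8.02% of all). At a deposited false discovery rate of at most 5%, 13 members (16.5%) had a promoter peak, against 9.38% of other genes (9.42% of all). The median promoter signal was 67.2 at the bound members (quartiles 62.7 and 70.6), against 97.3 at other bound genes (quartiles 61.7 and 174). The count of 17 rests unequally on the replicates: with the 2868 strongest regions of each replicate alone, 19 members had a promoter region in replicate 1 (14.2% of all genes did) and 10 members had one in replicate 2 (13.2% of all genes). As a share these are 24.1% and 12.7% of the members, so in replicate 2 alone the members were near the share of all genes.

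Counted as summits, the chromosome had 17.8 IDR peaks per Mb, against 21.5 per Mb on the arms of X, 2 and 3, and 58.6 protein-coding genes per Mb against 105. On chromosome 4 these counts leave out the gene that was not analysed and the 1 IDR peak there. Of the 24 summits, 18 (75%) lay within 500 bp of a TSS, against 56.6% of the 2843 summits elsewhere; 17 of the 18 were at members and the other was at the non-coding genes asRNA:CR44030 and lncRNA:CR45201. The median signal over the 24 summits was 65.9 (quartiles 51.2 and 71.3, highest 169), against 73.2 (quartiles 52.6 and 125, highest 1624.5) elsewhere. Members are long genes, with a median of 10426 bp against 2154.5 bp for other genes, and had 1.78 TSSs on average against 1.40, which gives them more chances of a summit within the window; how much this adds was not tested.

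**Figure D1:**
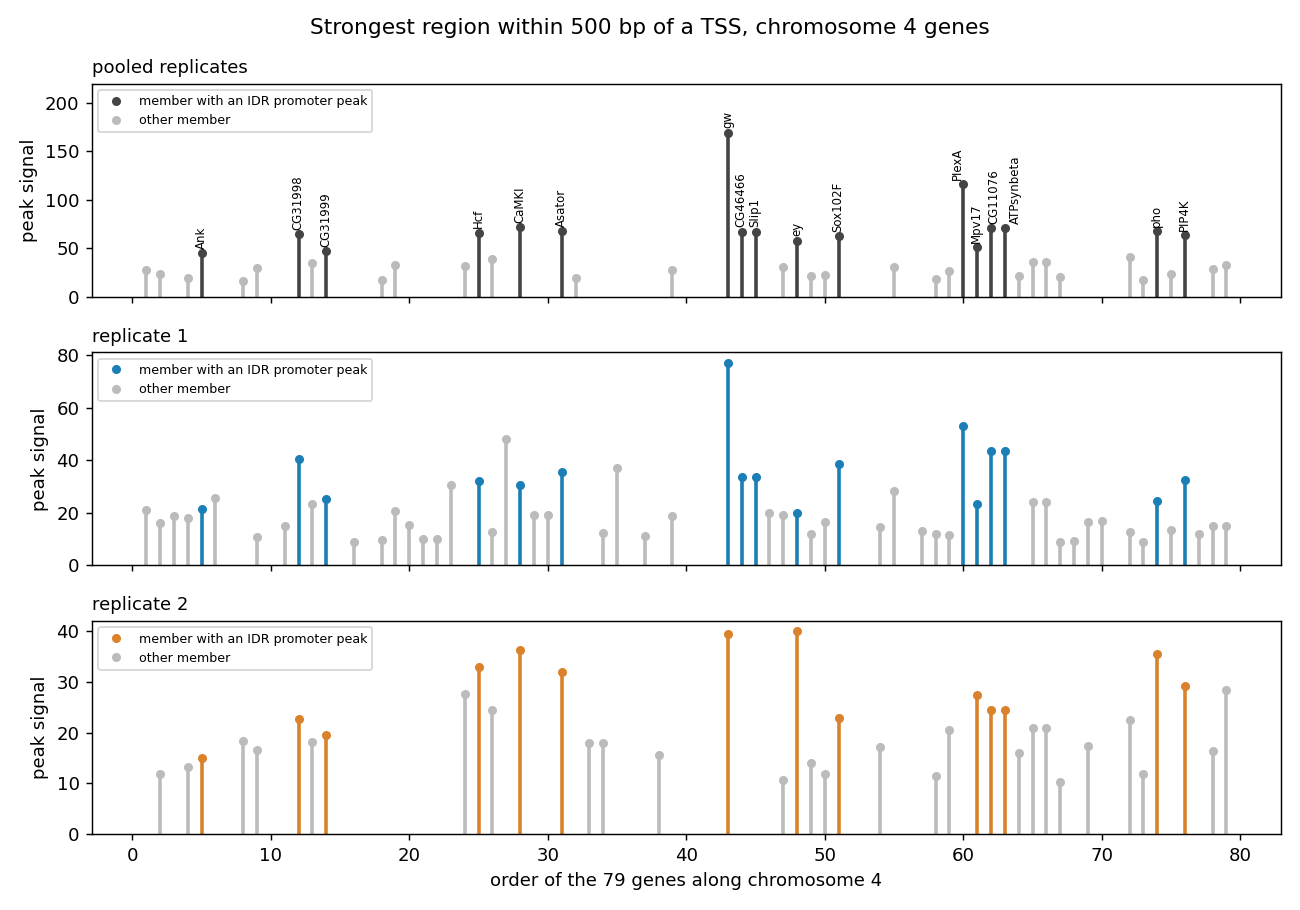
Signal (vertical axes, arbitrary units of the peak caller, separate scales) of the strongest region within 500 bp of a TSS for the 79 members in their order along the chromosome, in the pooled list and in each replicate list; coloured points are members with an IDR promoter peak, grey points other members, and a gene with no point has no listed region. The pooled signals of gw (169) and PlexA (116) stand above all others, and more genes have a point in replicate 1 (61) than in replicate 2 (39).

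The strongest peak was at gw, which encodes the GW182 protein of microRNA silencing. Its summit at position 660134 lay in an intron, 151 bp upstream of a second TSS, with a pooled signal of 169.5 and rank 450 of the IDR peaks. Replicate 1 listed 77.2 there, and the nearest region of replicate 2, 101 bp from the pooled summit, had 39.4. PlexA, a semaphorin receptor of axon guidance, was next, with 116 (rank 787) at 155 bp upstream; replicate 1 listed 53.0 and replicate 2 listed no region within 300 bp. These were the members with a promoter peak among the 1434 strongest.

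Among the listed transcription regulators, 4 of 18 had a promoter peak, a share near the 21.5% of all members (12.5% of all protein-coding genes). At pho, a DNA-binding protein of the Polycomb group, the summit was 246 bp upstream with a pooled signal of 67.7, with 24.7 in replicate 1 and 35.4 in replicate 2. At Hcf, host cell factor, a subunit of chromatin complexes, it was 89 bp upstream with 66.2; replicate 2 had 33.0 and replicate 1 listed no region within 300 bp, although it listed one of 32.1 elsewhere in the promoter window. Sox102F, a Sox transcription factor, had 62.7 at 282 bp upstream of an internal TSS (38.7 in replicate 1 and 23.0 in replicate 2). That summit lay in an intron, 26764 bp inside the gene from its 5' end. At ey, the Pax6 homologue that directs eye development, the summit was 7 bp upstream of the TSS with 57.9, and replicate 2 (40.0) was higher than replicate 1, whose nearest region (19.9) was 135 bp away. The 4 pooled signals are close together, whereas the order of the replicates differs from gene to gene.

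Kinases and signalling genes followed. CaMKI, a calmodulin-dependent protein kinase, had 71.7 at 64 bp downstream of an internal TSS, in the 5' untranslated region and 653 bp inside the gene, with 30.5 in replicate 1 and 36.3 in replicate 2. Asator, a protein kinase, had 67.4 at 486 bp upstream of an internal TSS, with 35.5 and 32.0 in replicates 1 and 2. Its summit lay in an intron, 2475 bp inside the gene. PIP4K, a kinase of phosphatidylinositol phosphates, had summits 41 and 244 bp upstream, with 63.8 and 49.5. Replicate 1 listed both, at 32.4 and 24.1, and replicate 2 listed a single region of 29.2 between them. Slip1 and CG46466 are divergent neighbours that share a summit of 67.2, which lay 180 bp upstream of CG46466 and 317 bp upstream of Slip1; replicate 1 had 33.8 and replicate 2 listed none.

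Of the genes of energy metabolism and the cell's framework, ATPsynbeta, the catalytic beta subunit of the mitochondrial ATP synthase, had 70.6 at 79 bp downstream of a TSS, in a coding exon, with 43.4 in replicate 1 and 22.7 in replicate 2. Its neighbour CG11076 had a summit of its own 61 bp upstream of a TSS, of 65.5 (33.6 and 24.5 in replicates 1 and 2), and both summits lay within 500 bp of a TSS of each gene. Mpv17, whose mammalian counterpart is a protein of the inner mitochondrial membrane, had 51.4 at 147 bp upstream (14.1 in replicate 1 and 27.5 in replicate 2); replicate 1 also listed a stronger region of 23.4 at 24 bp upstream. Ank, ankyrin, which ties membrane proteins to spectrin, had the lowest promoter signal of the members, 45.2 at 113 bp upstream (21.7 and 14.9). CG31998 had 64.7 at 145 bp upstream (40.6 and 22.6) and CG31999 had 47.2 on an internal TSS, 1792 bp inside the gene (25.2 and 19.5). The calls at CaMKI, CG31999, Asator and Sox102F rest on such internal TSSs: with only the TSS at the 5' end of each gene, these 4 had no promoter peak and the other 13 did. Apart from gw and PlexA, the pooled promoter signals of the bound members ran from 45.2 to 71.7.

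**Figure D2:**
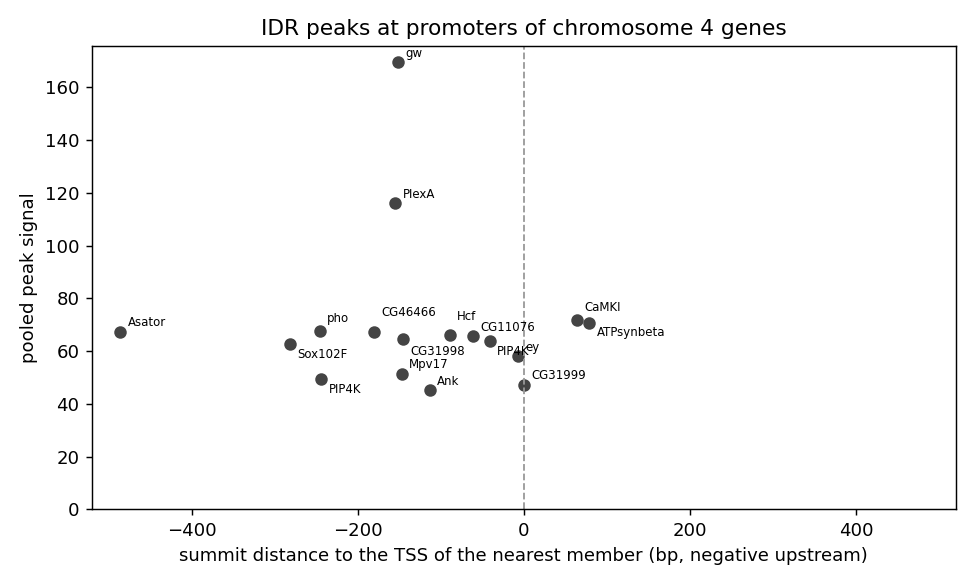
Pooled signal (vertical axis, units of the peak caller) of the 17 IDR summits at members against their distance in bp to the TSS of the nearest member (negative is upstream; the dashed line is the TSS); PIP4K appears at both of its summits. 14 of the 17 lie upstream, most within 300 bp.

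Summits sat upstream of the TSS at 14 of the 17 bound members (82.4%, median -147 bp, quartiles -186 and -41), against 88.2% of the other bound genes (median -154 bp, quartiles -242 and -80). The offsets ran from -486 to 79 bp on chromosome 4 and from -500 to 496 bp at the other genes.

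Of the 6 IDR peaks away from a TSS, the strongest was intergenic, at position 424764, 19147 bp from the TSS of lgs (legless, the BCL9 homologue of the Wingless pathway) and past that gene's 3' end. Its signal was 94.6, with 46.9 in replicate 1 and 50.6 in replicate 2. myo, which encodes the TGF-beta family ligand myoglianin, and ey are divergent neighbours: the summit at 696888 (77.0) lay 801 bp upstream of ey and 833 bp upstream of myo, and that at 695420 (71.2) lay 635 bp inside myo, in its 5' untranslated region. An intron of eIF4G1, the scaffold of translation initiation, held a summit of 76.9 at 7901 bp from the TSS, with 45.6 in replicate 1 and 34.3 in replicate 2. The others were 50.6 at 3913 bp upstream of zfh2, a zinc finger homeodomain gene, and 44.6 at 11424 bp upstream of dati, a zinc finger gene. The summit upstream of dati was nearer to a non-coding gene, 6264 bp upstream of its TSS. myo and eIF4G1 were the members with an IDR summit in the gene but none at a TSS. Together 3 IDR summits fell at the myo and ey pair within 2262 bp.

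Along the chromosome the peaks were unevenly placed. Neighbouring summits were a median of 21393 bp apart, from 203 bp at PIP4K to 162237 bp between the summit upstream of zfh2 and gw, and 7 of the 23 gaps were under 5 kb. PlexA, Mpv17, CG11076 and ATPsynbeta are neighbours, and their 4 summits fell between 1027256 and 1031943. gw, CG46466 and Slip1 are another such run, with summits 3170 bp apart. The longest runs of members with no IDR promoter peak were 11 genes from zfh2 to Ekar, 10 from yellow-h to PMCA and 10 from CaMKII to Kif3C. In bins of 100 kb, the bin from 600001 to 700000 held 11 members, 4 of them bound, and 5 IDR summits, while the bin from 700001 to 800000 held 2 members and no IDR summit, although it had the most pooled regions of any bin (39).

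None of the 24 IDR summits lay inside an annotated transposable element. A count of 0 in 24 allows a share of up to 12.5% if summits are independent, which those close together may not be. Such elements cover 24.8% of the chromosome. With 18 of the 24 summits at a TSS, the share of all bases is not a like reference, and no test was made. Over X, 2 and 3 the elements cover 5.74% of the bases and hold 0.387% of the IDR summits. In the lists that include background, 8.81% of the pooled regions of chromosome 4, 8.22% of those of replicate 1 and 7.84% of those of replicate 2 had a summit in an element, against 1.14% of the pooled regions elsewhere. No source used here says how reads from repeats were treated, and its part in these shares was not tested.

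The members without an IDR promoter peak were not without signal. The strongest pooled promoter regions among them were at CG32017 (41.0), dati (39.2), Zyx and apolpp, which share a region of 36.3, and Crk (34.3). Zyx is zyxin of focal adhesions, apolpp the precursor of the lipophorin proteins that carry lipid in the blood, and Crk an adaptor protein. The weakest IDR signal genome-wide was 42.5 and the weakest on chromosome 4 was 44.6 (the summit upstream of dati), so CG32017 and dati lay just outside the threshold and the peaks at Ank (45.2) and asRNA:CR44030 (45.5) just inside. A second summit at Hcf, 285 bp inside the gene, had 39.9 and was also outside. Counting any pooled region, 44 of 79 members (55.7%) had one within 500 bp of a TSS, against 31.6% of other genes (31.7% of all). There was no region of any list at 12 members (15.2%, against 52.7% of other genes), among them CG32006, Arl4, yellow-h, dpr7 and Ephrin, the ligand of the Eph receptor.

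By role, in lists drawn up with earlier results of these data known, a promoter peak was found at 4 of 18 transcription regulators, 3 of 11 genes of ligands, secreted proteins and signalling, 2 of 12 genes of RNA, mitochondria, transport and repair, 1 of 5 genes of cytoskeleton and muscle, 1 of 13 genes of neuronal signalling and 6 of 20 members in none of the lists, beside 21.5% of all members and 12.5% of all protein-coding genes. With any pooled region, the neuronal genes came to 5 of 13 and the transcription regulators to 11 of 18, beside 55.7% of all members and 31.7% of all protein-coding genes. The lists were matched by gene symbol, and 5 of their 64 symbols were not found. A member that was listed under another symbol is therefore counted here as in none of the lists. These counts are small and were not tested against each other.

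The replicates differed on chromosome 4 in how much they listed. Replicate 1 had 353 regions on the chromosome and replicate 2 had 204, a ratio of 1.73, whereas the ratio was 0.951 to 1.04 on the other arms. The difference was present at each depth of the lists from the 2868 strongest down: 25 regions against 16 among the 2868 strongest, 58 against 34 among 5000, 146 against 85 among 10000 and 260 against 145 among 20000. Of the replicate 1 regions of chromosome 4, 25.5% had a replicate 2 summit within 300 bp, against 37.5% to 39.3% on the other arms; of the replicate 2 regions, 43.6% had one in replicate 1, against 37.4% to 38.6%.

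**Figure D3:**
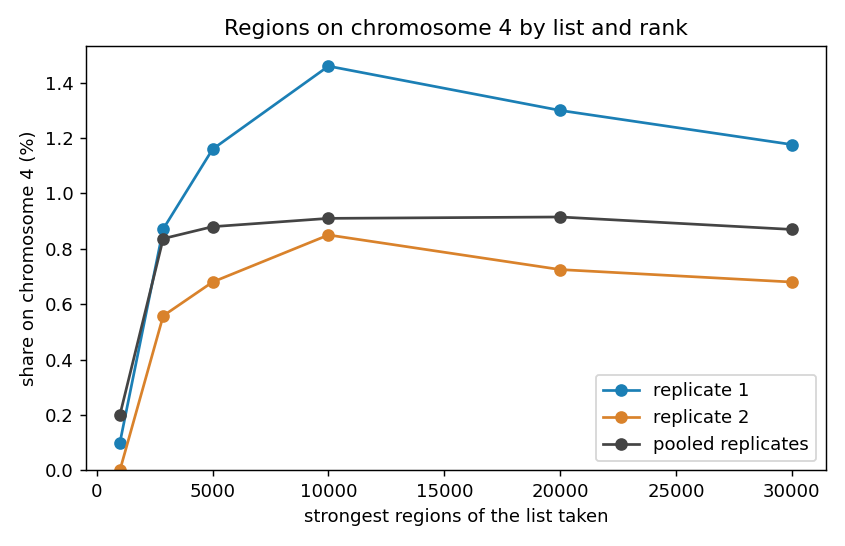
Share of the strongest regions of each list that lie on chromosome 4 (vertical axis, percent) as more regions are taken by signal (horizontal axis). Replicate 1 lies above replicate 2, with 1.46% against 0.85% among the 10000 strongest, and the pooled list lies at 0.87% to 0.915% from 5000 regions on.

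The same difference was seen gene by gene. A replicate 1 region lay within 500 bp of a TSS at 61 members (77.2%), against 35.2% of other genes (35.4% of all), and a replicate 2 region at 39 members (49.4%), against 33.6% of other genes (33.7% of all). Both replicates had one at 34 members (43.0%, against 23.1% of all genes), replicate 1 only at 27 (34.2%, against 12.4%) and replicate 2 only at 5 (6.33%, against 10.7%). The strongest promoter regions listed only in replicate 1 and not in the pooled list were at lgs (48.1), at ND-49 (37.0), which encodes a subunit of respiratory complex I, and at Rnf11 (30.8), a RING finger protein; replicate 2 and the pooled list had no summit within 500 bp of these. Such gaps also occur elsewhere: of replicate 1 regions with a signal of at least 30, 3 of 19 on chromosome 4 and 12.8% on the other arms had no pooled region within 500 bp.

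**Figure D4:**
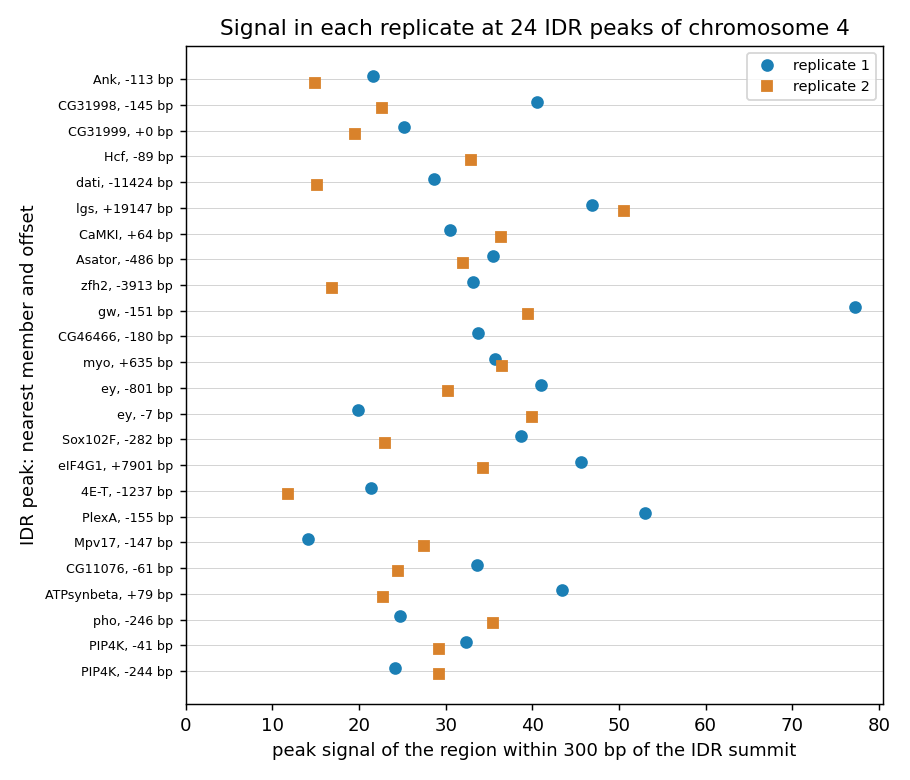
Signal in replicate 1 (circles) and replicate 2 (squares) of the nearest region within 300 bp of each of the 24 IDR summits, in order along the chromosome and labelled by the nearest member and the distance to its TSS; a missing symbol means that no region was listed, and both PIP4K summits share 1 replicate 2 region. Among summits with both symbols, the widest difference is at gw (77.2 in replicate 1 and 39.4 in replicate 2), and ey at -7 bp and Mpv17 lie furthest the other way.

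At 17 of the 24 IDR peaks (70.8%) each replicate listed a summit within 100 bp, against 88.1% elsewhere. Replicate 1 had none at 2 of the peaks and replicate 2 none at 5. The share depends on the limit of 100 bp. Replicate 2 listed a region 101 bp away at gw, 126 bp at the nearer PIP4K summit and 235 bp at asRNA:CR44030. Replicate 1 listed one 135 bp away at ey. The share elsewhere was not computed at 300 bp. At the 17 peaks matched within 100 bp, the median ratio of replicate 1 to replicate 2 signal was 1.33 (quartiles 0.928 and 1.68, range 0.512 to 1.96) and 11 were above 1. Over 2505 peaks elsewhere the median was 0.958 (quartiles 0.745 and 1.21), with arm medians of 0.927 to 0.984. The largest ratios at promoter peaks were at ATPsynbeta (1.91), CG31998 (1.79) and Sox102F (1.68), and the smallest at Mpv17 (0.512), pho (0.696) and the farther PIP4K summit (0.826). The value at Mpv17 rests on the region nearest the summit: with the strongest region of each replicate in the promoter window, an alternative chosen after seeing the data, it was 0.849. At PIP4K, where that region lies at the nearer summit, it was 1.11. Ratios above and below 1 thus occurred among members.

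**Figure D5:**
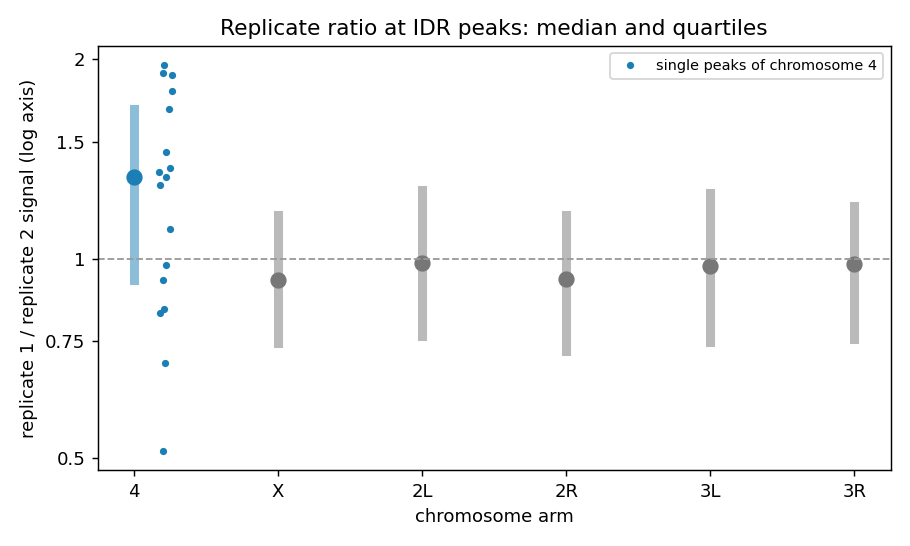
Ratio of replicate 1 to replicate 2 signal (vertical axis, log scale) at IDR peaks with a region in both replicates, by chromosome arm: large points are medians, bars run between the quartiles, and small points are the 17 single peaks of chromosome 4. The dashed line is a ratio of 1; the chromosome 4 median is 1.33 and the other medians are 0.927 to 0.984, while the quartile bars overlap.

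The ratio was also read in peaks of the other arms that resemble those of chromosome 4. Peaks there with a signal within the chromosome 4 range had a median ratio of 0.969, those within the quartiles of its GC content 0.975, and those at a TSS 0.973, where chromosome 4 had 1.29 over 11 peaks. Across tertiles of GC content from low to high the medians were 0.997, 0.958 and 0.890, so the ratio was higher where GC content was lower, though below 1 in each. Chromosome 4 as a whole has 35.2% GC, against 41.6% to 42.6% for the other arms, while the windows of 201 bp at IDR summits had 33.0% ± 4.15 (SD, n = 24) against 35.8% ± 7.04 (SD, n = 2843). The part of base composition in the ratio on chromosome 4 was not tested. With 2 replicates in 1 group, a difference between the libraries and one between the flies cannot be told apart.

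Of the short promoter words, the DRE was in 4 of 24 summit windows (16.7%), against 3.02% elsewhere, and it was at the summits of Hcf, PlexA, PIP4K and the pair of ey and myo that are printed above. Around the 5' ends of genes it was no more common on the chromosome, in 6 of 79 windows (7.59%) against 7.84%. Among the 17 bound members it was at the 5' ends of 3 (17.6%), in windows that can overlap those of the summits. CGATA of BEAF-32 was in 37.5% of summit windows against 28.4%, GAGAG of the GAGA factor in 16.7% against 22.2% and the TATA word TATAAA in 45.8% against 36.8%. At the 5' ends of bound members these 3 words were in 64.7%, 35.3% and 47.1%, against 39.4%, 22.5% and 29.1% for other genes. The E-box word CAGCTG and GGTCACAC, the core bound by M1BP, were in 0 of 24 summit windows, which allows up to 12.5%, against 8.37% and 1.37% elsewhere. Around the 5' ends of members each was in 3 of 79 windows (3.80%), against 13.8% and 6.77% for other genes. All words were read on both strands; a match is a description of the letters and not a bound site.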

How the data were processed

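Peak lists from 2 biological replicates of 1 group were used. Signal per region was deposited by the authors in narrowPeak lists, and −log10 of the q-value was deposited by the authors beside it; the false discovery rate was computed from the second. No source used here gives the aligner, the peak caller, the handling of repeats or the read totals, so depth is unknown. Genes and TSSs came from Ensembl release 115 and sequence from RefSeq's Release 6, both on dm6 coordinates; dm3 lists gave counts and signals only. Regions at 1 gene were left out (2 pooled, 1 IDR, 1 replicate 1 and 2 replicate 2 regions). A gene has a promoter peak if a summit lies no more than 500 bp from any of its annotated TSSs; the strongest is given. Replicate regions were matched by the nearest summit within 100 bp. Signal was used to describe peaks within a list, and between replicates at the same peak.

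The members and the role lists (59 of 64 symbols found) were chosen with earlier results of these data known. Named genes are those with an IDR promoter peak or a summit in the gene, the 5 strongest without one, the first 5 along the chromosome with no region, the 3 largest and smallest ratios, and those beside the IDR threshold; lgs, ND-49 and Rnf11 were chosen after their values were seen. Alternatives were windows of 200 and 1000 bp, 1 TSS per gene, gene bodies, each replicate alone, the 1434 strongest IDR peaks, a false discovery rate of at most 5%, other matching and dm3. The distance and matching code was tested on simulated data. The tools were Python 3.11.15, scipy 1.17.1, numpy 2.4.6, matplotlib 3.10.9 and pandas 2.3.3.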

Additional observations from a re-analysis of the deposited data

How the results depend on the processing

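The number of members with a promoter peak (17) was 13 to 19 with windows of 200 and 1000 bp, 1 TSS per gene, gene bodies or the limit of 5% on the false discovery rate. The count was 2 with the 1434 strongest IDR peaks, and 10 to 19 with 1 replicate left out; gw had a peak under each of these settings that names genes. Of the 17, 14 were kept in replicate 1 alone, 8 in replicate 2 alone and 6 in both. Shares over all genes were not computed for the windows of 200 and 1000 bp, 1 TSS per gene or gene bodies. The counts under those settings therefore cannot show whether the difference from other genes holds. IDR peaks on the chromosome (24) came to 5 among the 1434 strongest, 16 to 25 without a replicate and 22 on dm3, where the gene left out on dm6 could not be removed. The share of these peaks at a TSS (75%) was 58.3% with a window of 200 bp, 40% among the strongest and 62.5% to 76% without a replicate. The median signal (65.9) was 94.6 among the strongest, 69.1 at the false discovery rate, 63.4 on dm3 and 33.1 to 33.8 in single replicates. At chromosome 4 IDR peaks matched in both replicates, the sum of the 2 signals was a median of 0.977 of the pooled signal. Signals of 1 replicate and of the pooled list are therefore not alike in scale. The median distance (-147 bp) was -113 and -155 bp with windows of 200 and 1000 bp, -153 bp among the strongest, -155 bp at the false discovery rate and -137 to -133 bp without a replicate. The median ratio of the replicates (1.33) was 1.27 to 1.33 under its 5 alternatives. These alternatives use largely the same few peaks, so the narrow range does not measure how certain the ratio is. Of the 5 peaks among the 1434 strongest, gw and PlexA have no ratio, and the median is again the value at eIF4G1. The strongest region of each replicate in the promoter window was also used, a choice made after seeing the data. The ratio at the farther PIP4K summit (0.826) was then 1.11 and that at Mpv17 (0.512) was 0.849. The other 9 promoter summits with a ratio kept their side of 1. Apart from those at CG11076 and ATPsynbeta, the same regions were compared again, so these ratios could not change. At CG11076 and ATPsynbeta the ratio became 1.77. It sets the replicate 1 region at the ATPsynbeta summit against the replicate 2 region at the CG11076 summit. No paired analysis was possible because there is 1 group. The causes were not tested.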
